A study of Mus musculus with 10 samples.

Results

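Levels of 30 mouse genes of cholesterol synthesis, uptake control, transport, efflux and storage were taken from RNA sequencing of whole kidney. The genes were listed by their known roles in the pathway and matched to the files through their Ensembl identifiers. Each of the 30 symbols matched 1 of the 46517 identifiers, and all 30 had enough counts to be among the 17823 genes tested. By role, 18 are enzymes of synthesis, 5 belong to the SREBP control system, 2 are efflux transporters, 2 are LXR receptors, and Stard4, Mylip and Soat1 act in sterol transfer, uptake control and storage. The study put variants of the human gene APOL1, which encodes an apolipoprotein, into mouse podocytes, the cells whose foot processes wrap the glomerular capillaries. By genotype label, there are 2 libraries of G2-APOL1 kidneys, 2 of G1-APOL1 kidneys, 3 of wild type (single mutant) kidneys and 3 of Control kidneys. The source labels call G2 and G1 risk alleles; these are the alleles known from human kidney disease, and the term risk alleles is used here for the equally weighted mean of both. The labels give neither strain, age, sex nor the promoter that drives the transgene, they do not explain the words single mutant, and they do not say that each library is a separate mouse. The p-values below therefore measure the spread between libraries, part of which may be technical.

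Mammalian cells make cholesterol from acetyl-CoA through mevalonate, isoprenoid diphosphates, squalene and lanosterol. When membrane sterol is low, SCAP escorts SREBP proteins from the endoplasmic reticulum to the Golgi, where they are cut into transcription factors that switch on the synthesis enzymes and lipoprotein uptake. When sterol is high, INSIG proteins hold SCAP back. LXR receptors, which oxysterols activate, drive the opposite programme: the exporters ABCA1 and ABCG1 carry cholesterol out of the cell, and MYLIP marks receptors of the LDL receptor family for degradation. In the kidney, tubule cells and podocytes make and export cholesterol, and macrophages that enter injured tissue are known to express ABCA1.

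The libraries held 27596391 to 34815153 counts. The kidney markers Umod, Slc12a1, Slc34a1, Aqp2 and Slc12a3 were present in all libraries, and the adrenal cortex genes Cyp11b1 and Cyp11b2 had no count in any. A single library stands apart by sex-linked genes: G1 replicate 2 had 359.5 CPM (counts per 1000000 on TMM-scaled library sizes) of Xist, the RNA of the silenced X chromosome, where the other 9 libraries had 0.195 to 1.13 CPM. Its 4 Y-linked markers lay between 0.0756 and 0.529 CPM. Counts of calls among the cholesterol genes listed above, and among all genes, are therefore also given without it. Calls for the further gene lists and the cell type markers are given only with all libraries in the fit. How they change without it was not tested.

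Promoter windows show what the synthesis genes share besides function. RefSeq windows on GRCm38.p6, 300 bases each from 250 before to 50 after the start, matched 25 of the 30 genes, 15 of them synthesis enzymes, leaving Fdps, Fdft1, Sqle, Abcg1 and Stard4. The CCAAT box, the site of the factor NF-Y that works together with SREBP, was searched as CCAAT on both strands. It was found in 14 of the 15 synthesis genes, all but Acat2, and in 20 of the 25 genes with a window, where 41.1% of all 27025 genes with a window hold it. The GC box, searched as GGGCGG, was in 14 of the 15 synthesis genes, all but Pmvk, and in 22 of the 25, against 38.2% of all genes. The sterol response element, searched as TCACNCCAC, was found in Hmgcs1 alone, 1 of 25, where 1.44% of all genes hold it. The looser TCANNCCAC, which includes those matches, added Mylip. Other forms of the element were not searched, so a window without a match is not shown to lack it. The E-box CACGTG was in 6 of the 25, against 8.09% of all genes. The exact direct repeat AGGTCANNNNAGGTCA, 1 form of the LXR site, was in none of the 25 windows and in 4 of all 27025 genes (0.015%); looser forms were not searched, so nothing on LXR sites can be read from this. The windows of Hmgcs1, Idi1 and Cyp51, which fell with the risk alleles against wild type (single mutant), and of the exporter gene Abca1, which rose, are shown 5′ to 3′ in the direction of transcription, in that order chr13:119690101-119690400 on the + strand, chr13:8885356-8885655 on the + strand, chr5:4104648-4104947 on the - strand and chr4:53159846-53160145 on the - strand. Capitals mark only matches to TCACNCCAC (TCACCCCAC in Hmgcs1, starting 137 bases before the start) and CCAAT boxes, which read ATTGG where they lie on the other strand.
Hmgcs1: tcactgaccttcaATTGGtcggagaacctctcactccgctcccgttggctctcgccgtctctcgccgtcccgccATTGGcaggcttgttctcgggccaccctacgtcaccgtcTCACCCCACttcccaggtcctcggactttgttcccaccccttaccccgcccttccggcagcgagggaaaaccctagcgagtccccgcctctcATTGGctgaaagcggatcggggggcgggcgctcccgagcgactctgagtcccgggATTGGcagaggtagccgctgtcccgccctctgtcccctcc
Idi1: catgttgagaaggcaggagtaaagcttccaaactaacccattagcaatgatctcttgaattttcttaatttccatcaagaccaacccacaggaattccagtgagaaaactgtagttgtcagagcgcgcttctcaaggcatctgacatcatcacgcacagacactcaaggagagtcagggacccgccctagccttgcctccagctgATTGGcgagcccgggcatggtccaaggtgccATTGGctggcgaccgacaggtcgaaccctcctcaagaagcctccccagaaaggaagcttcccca
Cyp51: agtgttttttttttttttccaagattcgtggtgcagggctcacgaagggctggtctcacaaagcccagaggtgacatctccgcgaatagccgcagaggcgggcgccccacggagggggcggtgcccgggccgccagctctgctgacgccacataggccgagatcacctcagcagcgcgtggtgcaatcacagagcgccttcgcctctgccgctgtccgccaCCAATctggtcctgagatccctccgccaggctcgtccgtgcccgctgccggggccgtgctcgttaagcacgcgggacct
Abca1: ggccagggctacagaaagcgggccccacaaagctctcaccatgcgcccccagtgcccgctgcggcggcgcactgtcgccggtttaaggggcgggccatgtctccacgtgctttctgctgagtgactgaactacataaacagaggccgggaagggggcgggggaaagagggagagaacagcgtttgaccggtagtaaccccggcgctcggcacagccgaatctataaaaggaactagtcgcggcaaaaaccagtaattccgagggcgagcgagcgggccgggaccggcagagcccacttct
Hmgcs1 held 4 CCAAT boxes, Idi1 held 2 and Cyp51 held 1. The Abca1 window held GC boxes and an E-box.

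The baseline in Control was uneven. Divided by exon length, mean levels in Control ran from 105 CPM per kb for Hmgcs1, the enzyme that makes HMG-CoA, and 69.0 CPM per kb for Cyp51, the lanosterol demethylase, down to 1.54 CPM per kb for Fdps, farnesyl diphosphate synthase. Abca1 had 3.18 and Abcg1 1.87 CPM per kb in Control. Of the Fdps exon bases, 26.7% lie in exons of the same-strand gene Gm43738, which was given 0 counts, so the Fdps level is uncertain.

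In kidneys with the risk alleles, 9 of 18 synthesis enzymes fell and the exporter Abca1 rose relative to Control. Of all 30 genes, 13 (43.3%) fell and 2 (6.7%) rose, where 18% of all genes tested were called lower and 19.3% were called higher. No synthesis enzyme rose, and their median log2 fold change was -0.43, while the median over all genes tested was 0.00. The words rose and fell are kept for genes with an adjusted p under 0.05 (edgeR quasi-likelihood test, Benjamini-Hochberg over all 17823 genes). Without G1 replicate 2 the count of genes that fell was 7 of 30, all of them among the 13, where 11.5% of all genes were called lower. Without G1 replicate 1 or Control replicate 3 it was likewise 7, where 13.4% and 13.8% of all genes were called lower. The falls of Idi1, Cyp51, Insig1, Lss, Ebp and Tm7sf2 and the rises of Abca1 and Soat1 held with each library left out in turn; the calls of Mvk, Pmvk, Mvd, Acat2, Scap, Stard4 and Nr1h3 did not, and G1 replicate 1, G1 replicate 2 and Control replicate 3 each ended 6 of these 7 calls when left out. In whole tissue, fewer cells of a type and less RNA per cell cannot be told apart. The 13 proximal tubule markers summed to 6112 to 9509 CPM in the risk allele libraries and 20290 to 24810 CPM in the 6 others, and 12 of 13 fell against Control; their part in the falls was not tested.

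**Figure D1:**
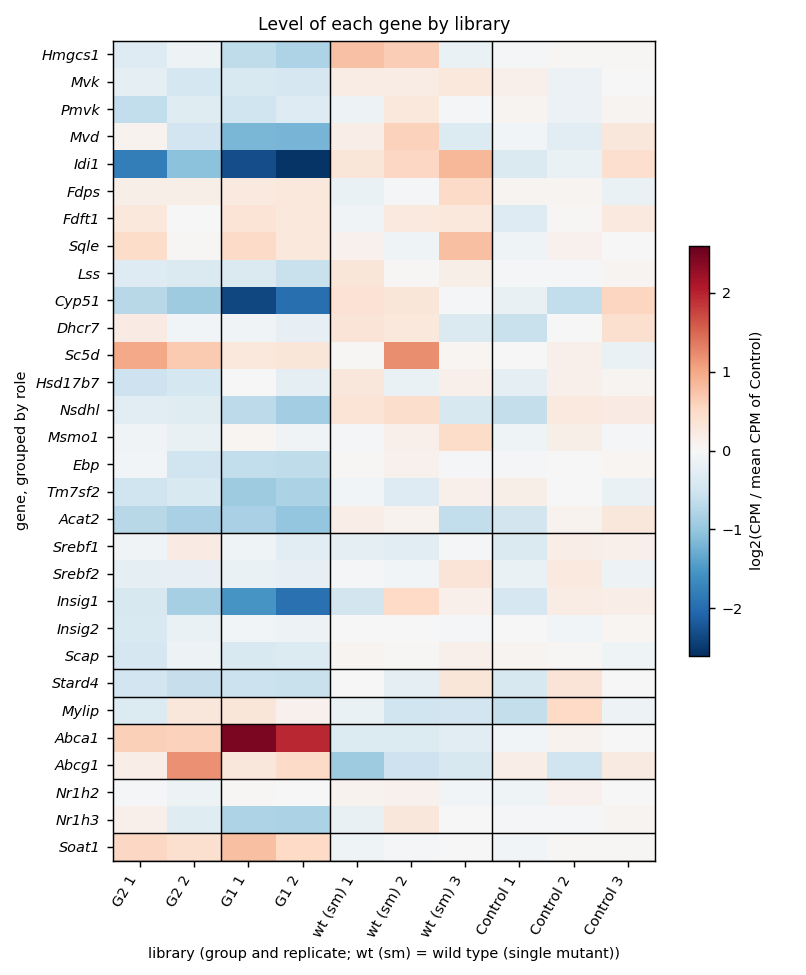
Level of each of the 30 genes (rows, grouped by role) in each of the 10 libraries (columns), as log2 of its CPM over the mean CPM of Control; blue is lower and red is higher than that mean. Idi1, Cyp51 and Insig1 are blue in the 4 G2 and G1 libraries, and Abca1 is red there.

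Idi1, the isomerase that supplies the allylic isoprenoid unit, showed the largest difference of the 30 genes from Control. It had 3.05 and 5.13 CPM in G2, 2.15 and 1.81 CPM in G1, 13.3, 15.6 and 19.5 CPM in wild type (single mutant), and 8.25, 9.41 and 14.4 CPM in Control. All 4 risk allele libraries lay below all 6 others. The log2 fold change against Control was -1.90 ± 0.26 (SE), a level 3.74-fold lower (edgeR quasi-likelihood test, adjusted p = 0.000682). Its gene (ENSMUSG00000058258.13) lies on chromosome 13, bases 8885501 to 8892451 (GRCm38), and its paralog Idi2 took 10 counts over all libraries against 2702 for Idi1.

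Cyp51 (chromosome 5, bases 4081145 to 4104746) removes a methyl group from lanosterol. It had 186 and 160 CPM in G2, 58.7 and 78.8 CPM in G1, 395, 376.5 and 293 CPM in wild type (single mutant), and 267, 196 and 451 CPM in Control. The 4 risk allele libraries were again below the 6 others, with G1 lowest. The difference from Control was -1.48 ± 0.26 log2, or 2.79-fold lower (edgeR quasi-likelihood test, adjusted p = 0.00251). Exons of Akap9 on the opposite strand cover 3.76% of Cyp51 exon bases, and the strand setting of the counting is not given.

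Along the pathway, the falls lay before and after the squalene steps, but not every enzyme there fell. Acat2, the cytosolic thiolase that supplies acetoacetyl-CoA, fell by 0.86 on the log2 scale, although reads of its near-identical paralog Acat3 may be split with it (23099 counts for Acat2 and 6097 for Acat3). Of the mevalonate enzymes, mevalonate kinase Mvk fell by 0.39, phosphomevalonate kinase Pmvk by 0.45 and the decarboxylase Mvd by 0.69 on the log2 scale. After squalene, lanosterol synthase Lss fell by 0.42, the sterol reductase Tm7sf2 by 0.67 and the sterol isomerase Ebp by 0.46. On the TMM scale, Mvk, Pmvk, Lss, Tm7sf2, Ebp and Acat2 had all 4 risk allele libraries below the 6 others. Mvd overlapped, with 72.4 and 48.0 CPM in G2 and 29.85 and 29.5 CPM in G1 against 64.8, 56.0 and 83.8 CPM in Control. The Tm7sf2 exons share 12.1% of their bases with Vps51 on the same strand.

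The enzymes between Idi1 and Lss in the pathway were among the 9 synthesis enzymes that did not pass, which lay along the whole pathway. Fdps, squalene synthase Fdft1 and squalene epoxidase Sqle had log2 fold changes of 0.20 ± 0.18, 0.23 ± 0.16 and 0.33 ± 0.21 (SE) against Control, and none passed the test. For Fdft1, 18.3% of exon bases are also exons of Ctsb on the opposite strand, a gene with 322351 counts against 7454. Sc5d, the desaturase that makes 7-dehydrocholesterol, had 24.1 and 19.4 CPM in G2, 14.7 and 15.1 CPM in G1 and 12.3, 13.3 and 10.8 CPM in Control, a difference of 0.57 ± 0.28 log2 that did not pass (edgeR adjusted p = 0.139). Values for the other enzymes that did not pass were -0.48 for Hmgcs1, -0.54 for the dehydrogenase Nsdhl, -0.31 for the keto reductase Hsd17b7, -0.08 for the methyl sterol oxidase Msmo1 and -0.03 for Dhcr7, the reductase that ends a branch of the pathway.

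The control system moved unevenly. Insig1, which retains SCAP and is itself an SREBP target, had 23.1 and 17.1 CPM in G2, 10.7 and 8.08 CPM in G1, 22.2, 44.1 and 33.8 CPM in wild type (single mutant) and 22.8, 35.2 and 34.9 CPM in Control. G1 lay below all other libraries, and 1 G2 library was within the Control range. It fell by 1.17 ± 0.25 on the log2 scale, 2.25-fold (edgeR adjusted p = 0.00652). Scap fell by 0.33 ± 0.09 on the log2 scale (edgeR adjusted p = 0.0191). Srebf1 (-0.06), Srebf2 (-0.21) and Insig2 (-0.19) did not pass. On the TMM scale Srebf2 was narrowly lower in all 4 risk allele libraries. It had 73.5 and 74.9 CPM in G2 and 77.4 and 74.7 CPM in G1 against 77.6 to 103 CPM in Control. Stard4, a soluble sterol carrier, fell by 0.56 ± 0.18 on the log2 scale (edgeR adjusted p = 0.0349).

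Abca1 (chromosome 4, bases 53030787 to 53159895) had 50.3 and 49.75 CPM in G2, 179 and 128 CPM in G1, 25.8, 25.7 and 27.1 CPM in wild type (single mutant), and 31.3, 35.0 and 32.6 CPM in Control. No risk allele library overlapped the others, and G1 was above G2. The log2 fold change against Control was 1.41 ± 0.12, or 2.66-fold (edgeR adjusted p = 8.84e-05). Soat1, which esterifies cholesterol for storage, rose as well: it had 60.1 and 55.9 CPM in G2 and 71.7 and 59.6 CPM in G1, against 38.6 to 41.5 CPM in wild type (single mutant) and 39.4 to 42.75 CPM in Control. Its difference from Control was 0.57 ± 0.09 log2 (edgeR adjusted p = 0.00132). The 13 macrophage markers summed to 877 to 1303 CPM in the 4 risk allele libraries and 159 to 265 CPM in the 6 others, and all 13 rose in both the Control and the wild type (single mutant) comparison. Their sum was 877 to 1303 CPM in G2 and 996 to 1178 CPM in G1. Single markers differed from the sum. Cd68, Itgam, Cd14, Fcgr1 and Mrc1, 5 of the 13, were lower in both G2 libraries than in both G1 libraries, as Abca1 was. The other 8 overlapped. How many of all genes had both G2 libraries below both G1 libraries was not counted. None of the 13 passed in G2 against G1 (edgeR). The part of macrophages in these values was not tested.

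The other efflux and LXR genes did not pass in that direction against Control. Abcg1, which loads cholesterol onto HDL, had 15.4 and 31.2 CPM in G2 and 16.75 and 19.4 CPM in G1, against 15.4, 9.56 and 16.0 CPM in Control, and did not pass (0.59 ± 0.27 log2, edgeR adjusted p = 0.118). Its groups overlap, the highest value belongs to G2 replicate 2, and without G2 replicate 1 the gene passed (0.79 log2). Nr1h3, the gene of LXR alpha, had 68.3 and 50.1 CPM in G2 and 36.0 and 35.5 CPM in G1, against 61.3, 60.8 and 65.3 CPM in Control, and fell by 0.44 ± 0.14 on the log2 scale (edgeR adjusted p = 0.0321). Nr1h2, the gene of LXR beta, stood at -0.03 ± 0.08 and Mylip, the ligase named above, at 0.11 ± 0.26 log2, and neither passed.

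**Figure D2:**
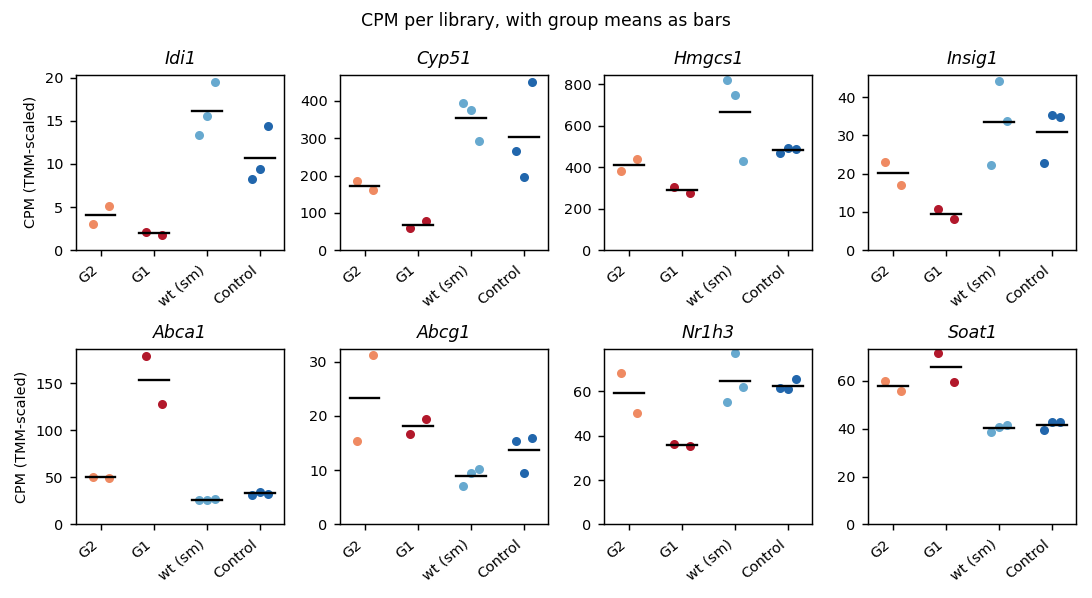
CPM of 8 genes in each library (points) with the group means (black bars), for G2, G1, wild type (single mutant), written wt (sm), and Control; every axis starts at 0. Idi1 and Cyp51 are lower in all 4 risk allele libraries, Abca1 and Soat1 are higher in all 4, and Nr1h3 is low in G1.

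Over the whole set of 30, 2 genes (Abca1 and Soat1) had all 4 risk allele libraries above the 6 others, where 16.4% of all genes tested did. There were 11 genes with all 4 below, where 14.0% of all genes did: Acat2, Cyp51, Ebp, Idi1, Lss, Mvk, Pmvk, Scap, Srebf2, Stard4 and Tm7sf2. Both counts use TMM-scaled CPM. TMM factors were 1.06 to 1.17 in the risk allele libraries and 0.88 to 0.95 in the others. Orders with library totals alone were not counted. The summed CPM of the 18 enzymes was 1129 and 1075 in G2, 827 and 781 in G1, 1895, 1841 and 1323 in wild type (single mutant), and 1252, 1309 and 1619 in Control. The risk allele sums lie below all others on the TMM scale. Hmgcs1 and Cyp51, with Control means of 482 and 305 CPM, make up much of them. Without Hmgcs1 the sum was 748 CPM in G2 replicate 1 and 785.5 CPM in Control replicate 1, the nearest of the others. Whether the order holds without both genes, or with library totals alone, was not tested. Abca1 and Abcg1 together had 65.7 and 80.9 CPM in G2, 196 and 147 CPM in G1, 32.9, 35.2 and 37.3 CPM in wild type (single mutant), and 46.7, 44.6 and 48.6 CPM in Control.

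Against wild type (single mutant), the same contrast gave more calls. Of the 30 genes, 16 (53.3%) fell and 3 (10%) rose, where 19.3% of all genes were called lower and 20.6% were called higher. All 13 genes that fell against Control also fell here, and Hmgcs1, Nsdhl and Hsd17b7 fell here besides them. Both comparisons share the 4 risk allele libraries. Of the 13, the calls of Pmvk, Mvd, Acat2, Stard4 and Nr1h3 against wild type (single mutant) did not hold with each library left out in turn. Without G1 replicate 2, 10 genes fell, where 13.1% of all genes were called lower. The enzymes' median was -0.54 log2, with 12 of 18 called lower, while the median of all genes was 0.00.

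Hmgcs1 had 381 and 439 CPM in G2, 304 and 277 CPM in G1, 819, 748 and 429 CPM in wild type (single mutant), and 466, 490 and 489.7 CPM in Control. A single wild type (single mutant) library, replicate 3, lay within the G2 range, and the other 2 were far above all others. Hmgcs1 fell by 0.95 ± 0.19 on the log2 scale against wild type (single mutant) (edgeR adjusted p = 0.00482), and its difference from Control, -0.48 ± 0.20 log2, did not pass (edgeR adjusted p = 0.0813). Nsdhl fell by 0.72 and Hsd17b7 by 0.41 on the log2 scale (edgeR adjusted p = 0.0467 and 0.0419), and each call held with 3 of the 10 libraries left out. Abcg1, at 7.15, 9.46 and 10.2 CPM in wild type (single mutant), was 2.30-fold higher with the risk alleles (1.20 ± 0.28 log2, edgeR adjusted p = 0.00843). The other large differences were -2.50 ± 0.26 log2 for Idi1, -1.70 ± 0.26 for Cyp51, -1.28 ± 0.25 for Insig1 and 1.74 ± 0.12 for Abca1.

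**Figure D3:**
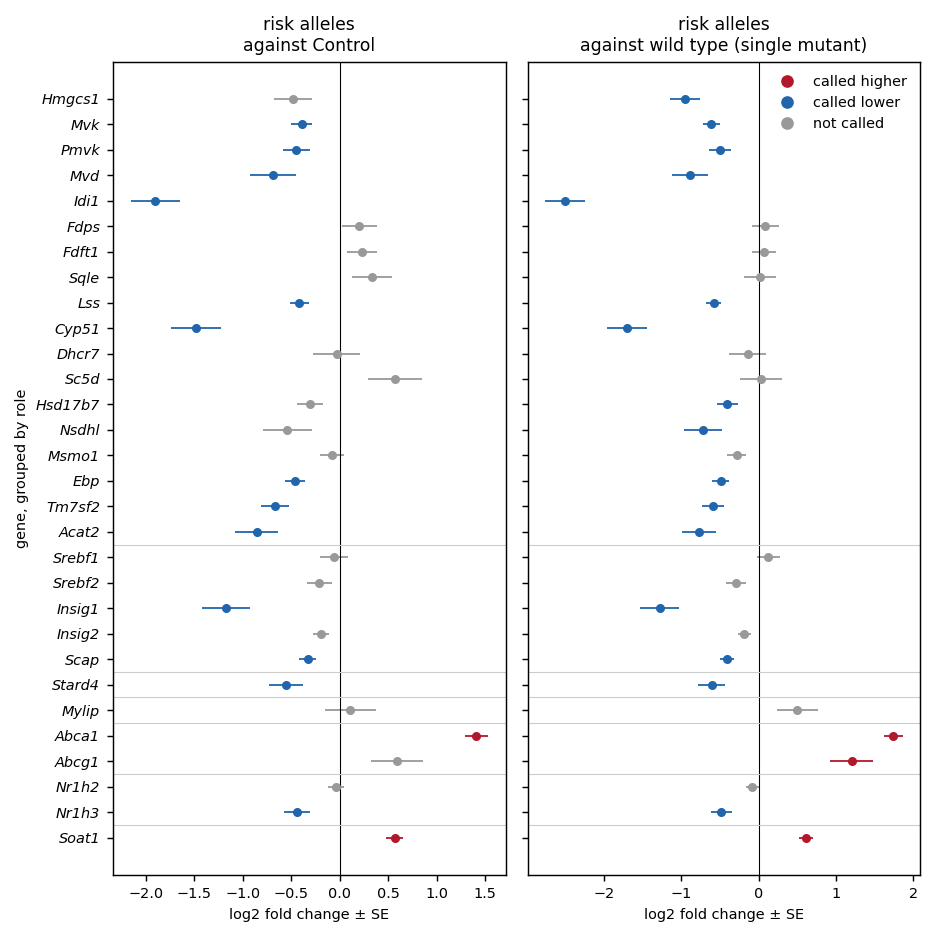
Log2 fold change (points) with its SE (bars) of each of the 30 genes for the risk alleles against Control (left) and against wild type (single mutant) (right); red is called higher, blue called lower and grey not called, by the edgeR quasi-likelihood test. Most synthesis enzymes lie left of 0 in both panels, Fdps, Fdft1, Sqle and Sc5d do not, and Abca1 lies farthest right.

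Between wild type (single mutant) and Control no gene of the 30 passed, and 0% of all genes tested were called higher and 0% were called lower by edgeR, while 724 genes had an unadjusted p under 0.05, DESeq2 called 2 higher and 12 lower, and limma voom called 0. Point values of the enzymes were above 0 for 16 of 18, with a median of 0.17 log2 against 0.00 for all genes (0.14 to 0.26 as single libraries were left out). These 6 libraries did not group by their labels over all genes: the chi-square per gene was 26.2 between wild type (single mutant) replicate 2 and Control replicate 3 and 38.0 between wild type (single mutant) replicate 1 and Control replicate 3, but 129.9 between wild type (single mutant) replicates 2 and 3. The summed CPM of the enzymes was 1895 and 1841 in wild type (single mutant) replicates 1 and 2 and 1619 in Control replicate 3, against 1323 in wild type (single mutant) replicate 3 and 1252 and 1309 in Control replicates 1 and 2. What the libraries share across the labels was not tested. The largest were 0.60 ± 0.27 for Idi1, 0.54 ± 0.30 for Sc5d and 0.47 ± 0.21 for Hmgcs1. On the efflux side Abcg1 was at -0.61 ± 0.29 and Abca1 at -0.33 ± 0.12 log2, and the 3 wild type (single mutant) libraries were below the 3 Control libraries for Abca1.

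Each allele was also set against the same 3 Control libraries. With G2, 1 of the 30 genes fell and 2 rose, where 8.86% of all genes were called lower and 12.7% were called higher. With G1, 12 fell and 2 rose, where 17.9% were called lower and 19.5% were called higher. These comparisons share the Control libraries, so their values are given side by side and not as support of each other. Idi1 was at -1.38 ± 0.32 log2 with G2 and -2.43 ± 0.34 with G1, and fell with each allele (edgeR adjusted p = 0.0153 and 0.000757). Abca1 was at 0.60 ± 0.13 log2 with G2 and 2.22 ± 0.13 with G1, and rose with each allele (edgeR adjusted p = 0.0133 and 2.71e-05). Soat1 rose with each allele too, at 0.48 ± 0.10 log2 with G2 and 0.66 ± 0.10 with G1. Leaving out G2 replicate 1 ended all 3 G2 calls, with edgeR adjusted p of 0.0871 for Idi1, 0.0775 for Abca1 and 0.092 for Soat1, and leaving out G2 replicate 2 ended that of Abca1 (0.0505); in turn, 3 genes fell with G2 without G2 replicate 2 and 4 without Control replicate 1, where 5.91% and 6.64% of all genes were called lower. Cyp51 was at -0.81 ± 0.32 log2 with G2, which did not pass, and fell by 2.15 ± 0.34 on the log2 scale with G1. Insig1 was at -0.62 ± 0.31 with G2, which did not pass, and fell by 1.72 ± 0.32 with G1. The others that fell with G1 were Mvd (-1.20), Acat2 (-0.93), Tm7sf2 (-0.88), Nr1h3 (-0.80), Hmgcs1 (-0.73), Ebp (-0.65), Lss (-0.48), Mvk (-0.43) and Scap (-0.38); the count that fell with G1 was 4 without G1 replicate 2, where 6.87% of all genes were called lower, and 7 without G1 replicate 1, where 9.93% were.

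Whether the alleles differ was tested directly, as G2 against G1. Of the 30 genes 1 was lower and 1 higher with G2, where 2.88% of all genes were called lower and 3.84% were called higher. Abca1 was 3.07-fold lower with G2 than with G1 (-1.62 ± 0.15 log2, edgeR adjusted p = 0.00286), and this call held under all 17 alternatives, with -1.90 to -1.36 log2 as single libraries were left out. Nr1h3 was 0.73 ± 0.18 log2 higher with G2 than with G1 (edgeR adjusted p = 0.0471), a call that is lost when any single library but wild type (single mutant) replicate 2 is left out, with adjusted p up to 0.238 without G1 replicate 2. Cyp51 (1.33 ± 0.35), Insig1 (1.09 ± 0.34), Idi1 (1.05 ± 0.34) and Mvd (1.02 ± 0.32) had the largest other differences, all higher with G2, and did not pass (edgeR adjusted p = 0.0537, 0.0857, 0.102 and 0.0883). G1 replicate 2 also differs from the G2 libraries in its sex-linked genes; without it Abca1 stood at -1.90 log2 for G2 against G1. Cell type markers also differed between the alleles. Of 8 fibroblast markers 3, and of 7 endothelial markers 4, were called higher with G2 than with G1 (edgeR), where 3.84% of all genes were. The proximal tubule sum was 8846 to 9509 CPM in G2 and 6112 to 7768 CPM in G1. Their part in the differences between the alleles was not tested.

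**Figure D4:**
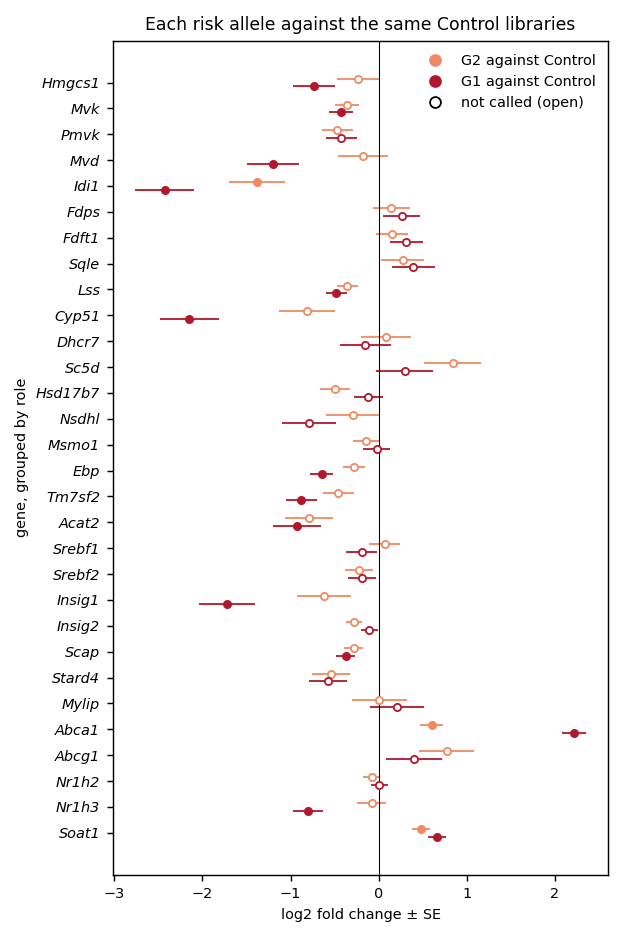
Log2 fold change (points) with its SE (bars) of each gene for G2 (orange) and G1 (dark red) against the same Control libraries; filled points are called by the edgeR quasi-likelihood test and open points are not. Abca1 lies at 0.60 for G2 and 2.22 for G1, and Cyp51, Idi1 and Insig1 lie farther left for G1.

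Some markers of further cell types also differed between these groups, where 18% of all genes were called lower and 19.3% higher against Control. Among the macrophage markers, Cd68 had 30.5 and 18.7 CPM in G2 and 31.2 and 39.7 CPM in G1, against 2.90 to 7.60 CPM in Control. Of 8 fibroblast markers 5 rose against Control, their sum being 1561 to 2139 CPM in G2, 798 to 964 CPM in G1 and 278 to 453 CPM in the others. None of the 8 podocyte markers passed against Control. Against wild type (single mutant) 1 of them fell, Nphs1 (-1.52 ± 0.48 log2, edgeR adjusted p = 0.033). Endothelial markers summed to 485 to 719 CPM in G2, 260 to 288 CPM in G1 and 341 to 639 CPM in the others, and 5 of 7 fell with G1 against Control. Of 10 liver markers 2 rose against Control, Apoc3 (1.88 log2) and Ttr (5.96), and 2 fell, Alb (-3.58) and Cyp2e1 (-2.45). Ttr did not follow the risk alleles, with 332 and 1.34 CPM in G2 and 141 and 114 CPM in G1. It had 400, 314 and 3.17 CPM in wild type (single mutant), and 1.83 to 2.86 CPM in Control. Adipose markers summed to 54.2 to 258 CPM with the risk alleles and 58.4 to 512 CPM in the others. Adrenal cortex markers, from a gland rich in cholesterol enzymes, summed to 2.47 to 3.12 CPM with the risk alleles and 2.30 to 3.51 CPM in the others. The part of these further cells in the values of the 30 genes was not tested.

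**Figure D5:**
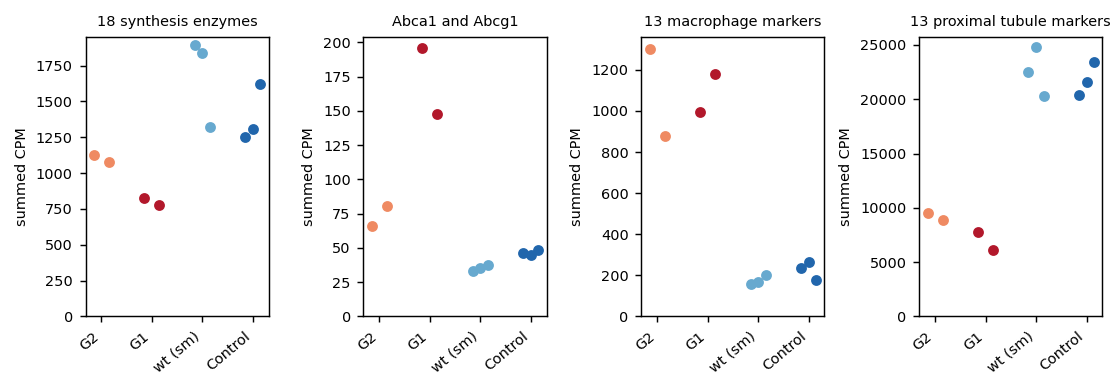
Summed CPM in each library of the 18 synthesis enzymes, of Abca1 with Abcg1, of 13 macrophage markers and of 13 proximal tubule markers, for G2, G1, wild type (single mutant), written wt (sm), and Control; every axis starts at 0. Macrophage markers are high in all 4 risk allele libraries, at 877 to 1303 CPM, and the Abca1 and Abcg1 sum is lower in G2, at 65.7 and 80.9 CPM, than in G1, at 196 and 147 CPM.

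The wider pathway was described by 8 further lists, 73 genes in all, of which 71 were tested. Calls in these lists are given only with all libraries in the fit. Against Control 25 fell and 12 rose, where 18% of all genes tested were called lower and 19.3% higher. Rises against Control were thus no more frequent than among all genes. Against wild type (single mutant) 26 fell and 15 rose, where 19.3% of all genes were called lower and 20.6% higher. Of 16 fatty acid genes known as SREBP targets 7 fell and none rose against Control; the lowest p-values were those of Acss2, which makes acetyl-CoA from acetate (-1.23), the desaturase Fads2 (-1.12) and ATP citrate lyase Acly (-0.78). Among the genes of SREBP processing and turnover Fbxw7, which targets SREBP for degradation, rose (0.35).

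Uptake and storage genes held calls in both directions, as all genes did (18% lower and 19.3% higher against Control). Of 14 uptake and lysosomal genes 7 fell against Control, with the lowest p-values for the endocytic receptors Lrp2 (-1.53) and Cubn (-1.09), both also on the proximal tubule list, and the lysosomal lipase Lipa (-0.95). The 3 that rose were the scavenger receptors Olr1 (3.97 ± 0.69 log2), Msr1 (2.68 ± 0.28) and Scarb1 (0.87 ± 0.18). Cd36, also a scavenger receptor, was among the 7 that fell (-1.57 ± 0.43). In ester storage, Soat2 (1.40) and the lipid droplet protein gene Plin2 (1.03) rose and the lipase Lipe (-1.17) fell, 3 of 5. Of 9 genes of sterol transfer between membranes Gramd1a rose (0.71), and Osbpl2 (-0.49), Osbpl8 (-0.87) and Osbp (-0.28) fell.

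Genes around LXR also held calls in both directions, where 18% of all genes were called lower and 19.3% higher against Control. Of 7 oxysterol and bile acid enzymes 3 rose, Ch25h (1.82 ± 0.38 log2), Sult2b1 (0.97) and Hsd3b7 (0.51), and 2 fell, Cyp7b1 (-3.14 ± 0.33) and Cyp27a1 (-0.80). Of 7 tested LXR partners and targets Arl4c (2.20 ± 0.22) and Pltp (0.66 ± 0.23) rose, and Smpdl3a (-1.36 ± 0.15) and Rxra, the gene of a partner receptor of LXR (-0.89 ± 0.09), fell. Lpcat3, a further LXR target, was at -0.02 ± 0.09 and did not pass.

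The direction of the smaller differences depends on the scaling of the libraries. TMM factors were 1.06 to 1.17 in the risk allele libraries and 0.88 to 0.95 in the others. With library totals alone, the median of all genes against Control moved to 0.28 log2 and 6037 genes were called higher and 1600 lower, where TMM gave 3441 and 3212. On that scale 7 of the 30 genes were called higher and 4 lower; those lower were Acat2, Cyp51, Idi1 and Insig1, and Fdft1, Sqle, Sc5d, Abcg1 and Nr1h2 joined Abca1 and Soat1 among those higher. The enzymes' median was then -0.16, or -0.43 relative to all genes, a distance that rescaling libraries leaves nearly as it was by construction. Calls that held against Control under all 17 alternatives were those of Abca1, Cyp51, Idi1, Insig1 and Soat1.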

How the data were processed

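Kidney RNA was sequenced in 10 libraries. Each deposited file lists raw read counts per gene, which the authors did not normalize. The submitters' processing notes name CASAVA 1.8.2, Trim Galore, FastQC, HTSeq 0.6.1, STAR 2.4.1d and build GRCm38; their settings, the annotation and the strand were not given in the sources used here. Labels name 2 different RNA kits. Symbols, coordinates and exon lengths were taken from GENCODE M21, which held 46005 of the 46517 identifiers. No libraries were alike within sampling noise (lowest chi-square per gene between libraries 26.2, genes with 50 or more counts).

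Counts were tested in edgeR 4.0.16 under R 4.3.3. Library sizes were TMM-scaled, genes were filtered by filterByExpr (minimum count 10), and a single quasi-likelihood model gave each group its mean (common biological coefficient of variation 0.249). Calls used a Benjamini-Hochberg adjusted p under 0.05 over all genes tested, in 6 comparisons. The script was tested on simulated data. Alternatives were library totals alone, DESeq2 1.42.0 (its size factors, and its Wald test), limma voom 3.58.1, other filters, only the groups compared, and each library left out. Tables and figures used Python 3.11.15, pandas 2.3.3 and matplotlib 3.10.9.

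The 30 genes, the other lists and the markers were chosen with earlier results of these data known. All 30 genes are named. Of each further list, the 3 called genes with the lowest p in each direction against Control are named. Cd36 and Lpcat3 are named besides. Some results that this rule covers are not reported here. Replicate numbers only follow accession order, so they do not pair libraries.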

Additional observations from a re-analysis of the deposited data

Results flagged for a closer look

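The effect of the alleles on Abca1 differed between G2 and G1. Tested directly as G2 against G1, the log2 fold change was -1.618 (edgeR adjusted p = 0.00286), with 50.3 and 49.75 CPM in G2 and 179 and 128 CPM in G1. Nr1h3 differed the other way, at 0.727 log2 for G2 against G1 (edgeR adjusted p = 0.0471), with 68.3 and 50.1 CPM in G2 and 36.0 and 35.5 CPM in G1. This call held with 1 of the 10 libraries left out, with edgeR adjusted p up to 0.238, and was also lost with DESeq2 size factors and with only the groups compared. The groups hold 2 libraries each and do not overlap for either gene.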

How the results depend on the processing

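Each of the 30 genes was refitted under 17 alternatives in 6 comparisons, 3060 values in all: 2747 kept their direction and side of the threshold, 108 changed sign without being called in either fit, 139 lost a call, 65 gained a call, and 1 reversed. The reversed value was Nr1h2 with the risk alleles against Control, at 0.24 log2 with library totals alone (-0.03 with TMM). Library totals alone gave 7 higher and 4 lower against Control (33.9% and 8.98% of all genes), 7 lower against wild type (single mutant) (9.59%), 4 higher and 7 lower for G1 (31.9% and 9.92%), and 4 higher for G2 (23.7%). For G2 against Control, the count that fell was 4 with DESeq2 size factors (9.91% of all genes called lower), 11 with the DESeq2 test (13%), 2 without the filter on low counts (4.57%) and 0 with only the groups compared (5.63%). For G2 against G1, the count that rose was 0 with DESeq2 size factors (3.44% of all genes called higher), 5 with the DESeq2 test (6.86%), and 2 with limma voom (4.61%), without the low-count filter (2.39%) and with at least 1 CPM in 3 libraries (4.93%). Leaving out 1 library gave 7 to 14 genes that fell against Control, 10 to 16 against wild type (single mutant), 4 to 14 for G1 and 1 to 4 for G2; genes that rose numbered 1 to 3 for G2 and 0 to 2 for G2 against G1. A group left with 1 library is assumed to vary like the others. The causes were not tested. No paired analysis was possible because the replicate numbers follow accession order. With 2 or 3 libraries per group, a p over the threshold does not show that levels were alike.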
